A study of Mus musculus with 11 samples.

Results

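Zc3h10, the gene that the hairpin of this study targets, was examined together with 9 genes of the same symbol family, Zc3h3, Zc3h4, Zc3h7a, Zc3h7b, Zc3h8, Zc3h11a, Zc3h13, Zc3h14 and Zc3h18. The 10 genes were taken by symbol from the read counts of every library. All 10 were present among the 21677 genes with counts over exons and the 18824 with counts over introns. All 10 also passed the filter on low counts in each of the 9 comparisons below.

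The RNA came from C2C12 cells, a mouse myoblast line. All cells carried an adenovirus, given at a multiplicity of infection of 100, whose U6 promoter drives a short hairpin RNA either against Zc3h10 (shZc3h10) or of scrambled sequence (scramble). Per the labels' protocols, confluent cells were exposed to 300 µM 4-thiouridine, a uridine analogue taken up into new transcripts, for 30 min, and labelled RNA was recovered through biotin as the newly made fraction (4sU RNA), while part of the harvest gave total RNA. There were 3 libraries of 4sU RNA with shZc3h10, 2 of 4sU RNA with scramble, and total RNA was represented by 3 libraries for each label. For the latter, the deposited files of all 6 libraries were named for the other hairpin than the library's label, against 0 of the 5 libraries of 4sU RNA. Groups were kept as labelled, so every direction in total RNA below holds for libraries labelled with a hairpin. The labels do not say that replicates were separate cultures. The p-values therefore speak of the spread among these libraries, possibly a technical one, and of nothing wider.

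CCCH zinc fingers are small zinc-binding folds that in many proteins contact RNA, and the family takes part in the making, export, modification and decay of transcripts. Zc3h10 has been described as a regulator of mitochondrial function in muscle cells and as an activator of thermogenic genes in brown fat. Its relatives here act mostly in the nucleus, in complexes that retain or destroy RNA, mark it with methyl groups, or carry it to the cytoplasm.

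A library of 4sU RNA had 10369374 to 19690198 exonic and 26272902 to 41597832 intronic counts, and a library of total RNA 31058706 to 54075687 exonic and 6007028 to 12213901 intronic counts. The intronic share of a library's counts was 70.2% to 71.7% for 4sU RNA with shZc3h10 and 67.9% to 68.4% with scramble, and 10.7% to 13.8% for total RNA labelled shZc3h10 and 15.3% to 21.9% labelled scramble. It thus set the groups apart in both kinds of RNA, higher with shZc3h10 in 4sU RNA and lower under that label in total RNA, and its part in the results over introns and in those of exons against introns was not tested. Levels are given as CPM, counts divided by the normalised library size, scaled apart for exons and introns and for each kind of RNA, so that a gene's exonic and intronic CPM are not on 1 scale and CPM does not rank genes by abundance. The 7 myoblast markers summed to 1010 to 1048 CPM in 4sU RNA with shZc3h10 and 1648 to 1693 with scramble, and to 2793 to 3496 and 1463 to 2224 CPM in total RNA labelled shZc3h10 and scramble, with 0 genes at zero. Of these 7 genes, 0 rose and 3 fell over exons in 4sU RNA, Itga7, Cdh15 and Des (log2 −1.11, −0.93 and −0.67), and 1 rose in total RNA labelled shZc3h10, Itga7 (1.16). Itga7 carried most of the difference of the sums in 4sU RNA (460 ± 25.0 CPM, SD, n = 3, against 997 ± 24.1, n = 2). The other 4 stood at 95.6 against 93.8 CPM (Myod1), 64.4 against 70.8 (Myf5), 145 against 132 (Vcam1) and 83.1 against 65.8 (Pax7). Over introns of 4sU RNA 1 of the 7 rose, Pax7, and 3 fell. Itga7, Cdh15 and Des differed in the direction of the Zc3h10 differences below, as did the sums. Over exons 3 of the 7 had a positive log2 difference in either kind of RNA, with a median of −0.14 in 4sU RNA and −0.03 in total RNA. The part of these genes in the Zc3h10 differences was not tested. The 6 myotube markers summed to 126 to 194 CPM for 4sU RNA and 173 to 258 CPM for total RNA. The sums were 0.0180 to 1.22 CPM for 4 adipocyte markers, 0.324 to 1.46 for 4 endothelial markers and 2.70 to 27.6, mostly Cd68, for 4 macrophage markers. Adipoq and Plin1 were at 0 in both 4sU scramble libraries.

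The first question was what the hairpin did to its own target. In 4sU RNA, exonic Zc3h10 (Entrez gene 103284) stood at 13.2, 18.8 and 12.8 CPM with shZc3h10 (184, 200 and 185 reads) and at 21.5 and 20.1 CPM with scramble (425 and 274 reads). All 3 shZc3h10 libraries lay below both scramble libraries, and shZc3h10 library 2 came close to them. Intronic Zc3h10 stood at 1.49, 1.23 and 1.76 CPM against 3.22 and 2.65 CPM, from 33 to 139 reads a library, again without overlap. The log2 difference, shZc3h10 minus scramble, was −0.49 (SE 0.19; 95% interval −0.89 to −0.08) over exons and −0.97 (SE 0.35; −1.74 to −0.21) over introns. Neither difference passed the threshold of 0.05 by the quasi-likelihood test of edgeR (Benjamini-Hochberg adjusted p = 0.128 and 0.0842). Without shZc3h10 library 2 the exonic difference was −0.67 and passed (edgeR, adjusted p = 0.0210).

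In total RNA the same gene stood the other way round. Exonic Zc3h10 was at 69.6, 114 and 75.0 CPM in libraries labelled shZc3h10 and at 43.6, 52.8 and 29.6 CPM in those labelled scramble, from 1647 to 5531 reads. Intronic Zc3h10 was at 33.1, 54.0 and 41.9 CPM against 22.2, 23.4 and 16.0 CPM. Neither pair of groups overlapped, and the libraries labelled for the hairpin against Zc3h10 held the more of its RNA. The log2 difference was 1.04 over exons (SE 0.30; 0.40 to 1.67; edgeR, adjusted p = 0.0522) and 1.07 over introns (SE 0.26; 0.50 to 1.63; adjusted p = 0.0325), so that Zc3h10 rose over introns in the libraries labelled shZc3h10. The intronic call was lost without shZc3h10 library 2 (adjusted p = 0.194) or 3 (0.0691) and without scramble library 1 (0.113) or 3 (0.0770). The exonic difference passed without shZc3h10 library 3 (edgeR, adjusted p = 0.0371) or scramble library 2 (0.0140), and also by DESeq2 (1.10, adjusted p = 0.0107).

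**Figure D1:**
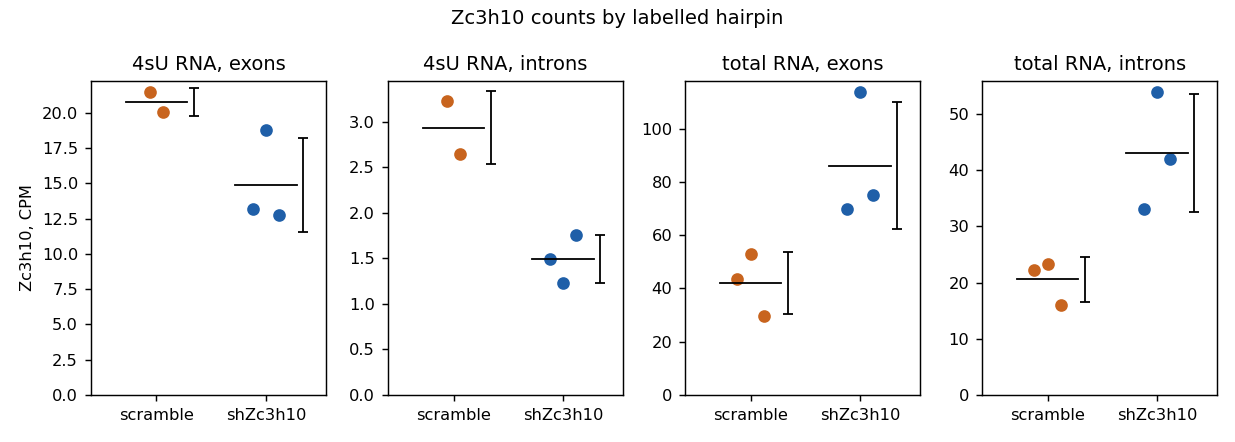
Zc3h10 level in CPM (vertical axes) over exons and introns of 4sU RNA and of total RNA, with 1 point per library and bars at the group mean ± SD. Libraries with shZc3h10 lie below scramble in 4sU RNA (14.9 ± 3.34 against 20.8 ± 0.987 CPM over exons) and above it, as labelled, in total RNA (86.1 ± 24.0 against 42.0 ± 11.6 CPM).

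Fitted over all 11 libraries, the hairpin effect on Zc3h10 in 4sU RNA minus that in total RNA was −1.68 over exons (SE 0.38; −2.48 to −0.88) and −2.00 over introns (SE 0.37; −2.80 to −1.21), a 3.20-fold and a 4.01-fold difference. Both passed (edgeR, adjusted p = 0.00677 and 0.00190) and were called in all 11 fits that left out 1 library, at −1.90 to −1.39 and −2.16 to −1.85. Among all genes, 14.1% of 15046 were called over exons (8.56% lower and 5.55% higher) and 14.6% of 15320 over introns (6.7% lower and 7.87% higher) in the same contrast. Zc3h10 lay at percentile 4.47 and 1.66 of these genes, and no other member was called in either. The contrast depends on the hairpin labels of the total RNA libraries, which the file names give the other way round. With the total RNA effect taken with the opposite sign in the same fit, an alternative chosen after seeing the data, the difference for Zc3h10 was 0.65 over exons (SE 0.39; −0.17 to 1.46; edgeR, adjusted p = 0.525) and −0.02 over introns (SE 0.33; −0.73 to 0.69; adjusted p = 0.990), at percentiles 82.6 and 51.2. Then 0 genes were called by edgeR over exons or introns, with 1707 and 1321 at an unadjusted p under 0.05. Every difference between the kinds of RNA given here therefore holds only with the total RNA libraries as labelled. Exact two-sided permutation tests of Zc3h10 CPM gave p = 0.1 for 4sU introns, total exons and total introns, the smallest p that these group sizes allow, and p = 0.2 for 4sU exons (6 tests with those of the intronic share; Benjamini-Hochberg 0.2 and 0.3).

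Intronic reads made up 21.0%, 14.2% and 24.5% of Zc3h10 reads in 4sU RNA with shZc3h10 and 24.6% and 22.6% with scramble. The exact (Clopper-Pearson) 95% intervals, which cover counting error only, ran from 9.95% to 30.4% over these libraries. In total RNA the share was 7.11%, 5.78% and 8.65% under the shZc3h10 label and 7.65%, 8.35% and 9.70% under scramble. Groups overlapped in both kinds of RNA (exact permutation test, p = 0.4 and 0.3; Benjamini-Hochberg 0.4 and 0.36). The exonic minus the intronic hairpin effect was 0.45 in 4sU RNA (SE 0.31; −0.20 to 1.10; edgeR, adjusted p = 0.715) and −0.04 in total RNA (SE 0.26; −0.59 to 0.52; adjusted p = 0.959). A difference between exons and introns of Zc3h10 was thus not detectable, and the intervals still allow about 1 log2 unit in 4sU RNA. In each library the intronic share of Zc3h10 was far under the median over 13035 genes, 67.7% to 71.4% for 4sU RNA and 25.6% to 32.8% for total RNA.

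The promoter of Zc3h10 is shown here as a description, and its part in the differences above was not tested. The 250 bases before the RefSeq start of Zc3h10 lie at chr10:128547747-128547996 on the minus strand of GRCm38.p6, a later build than the mm9 of the counts, and are given 5′ to 3′ with capitals on the match to GGGCGG, the GC box bound by Sp1-type factors.
Zc3h10 promoter: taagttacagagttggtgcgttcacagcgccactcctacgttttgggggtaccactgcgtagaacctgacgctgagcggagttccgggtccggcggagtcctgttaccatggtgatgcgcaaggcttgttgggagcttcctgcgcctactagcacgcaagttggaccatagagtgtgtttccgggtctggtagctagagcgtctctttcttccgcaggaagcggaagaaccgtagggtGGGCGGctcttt
The window holds 18 CpG dinucleotides, against a median of 6 in 32851 promoter windows of the same length, and is 57.2% G or C. On both strands GGGCGG matched 1 time, and 32.7% of all windows hold it. The letters CCGGAAG (ETS factors including GABP, in 6.91% of windows) and CANNTG (E-box, 66.2%) and the palindromic NRF1 motif (3.74%) were not in this window.

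By the smallest root mean square difference of exonic log2 CPM over the 11 libraries, centred within each kind of RNA, the 3 of 13099 genes most like Zc3h10 were Lpar2, Pvrl2 and Exosc2 (0.12, 0.14 and 0.17). They were picked for likeness over these same values, so their log2 differences are a description with no test. Lpar2, a lysophosphatidic acid receptor, differed by −0.41 in 4sU RNA and 0.84 in total RNA as labelled, Pvrl2, a nectin cell adhesion molecule, by −0.62 and 0.91, and Exosc2, an RNA exosome subunit, by −0.42 and 1.11. The closest of the other 9 members, Zc3h7b, ranked 3023 (0.47).

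The second question was whether the related genes moved with the hairpin. Over exons of 4sU RNA, 0 of the 10 members were called, where 10.4% of 13637 genes were (edgeR, 1412 genes; 5.66% higher and 4.69% lower), and 0 were called by DESeq2. Zc3h10 alone had an unadjusted p under 0.05. Over exons of total RNA 0 were called by edgeR, where 6.42% of 13846 genes were (3.06% higher and 3.36% lower), and 1, Zc3h10, by DESeq2. Of the members, 3 had an unadjusted p under 0.05 over these exons by edgeR (Zc3h10, Zc3h11a and Zc3h13). The share of all genes at that looser threshold was not taken. Over introns of 4sU RNA 1 member, Zc3h4, was called lower and 0 higher (6.57% of 13553 genes lower and 8.95% higher, 15.5% either way). Over introns of total RNA 1 member, Zc3h10, was called higher and 0 lower (3.08% of 13877 genes higher and 2.1% lower, 5.18% either way). Except over total introns, these shares are near or under those of all genes, and with 10 members 1 call sets the share. The median log2 difference of the members was −0.13 over 4sU exons, −0.15 over total exons, −0.11 over 4sU introns and 0.08 over total introns, beside −0.00, −0.10, 0.01 and −0.02 over all genes tested.

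Groups did not overlap for 4 of 10 members over 4sU exons (Zc3h10, Zc3h4 and Zc3h7a lower, Zc3h7b higher; all genes 18.9% lower and 18.2% higher, 37.2% either way), for 2 over total exons (Zc3h10 higher and Zc3h11a lower; all genes 13.9% and 15.4%, 29.3% either way), for 3 over 4sU introns (Zc3h10, Zc3h4 and Zc3h7a lower; all genes 22.1% lower and 23.4% higher, 45.5% either way) and for 3 over total introns (Zc3h10 and Zc3h18 higher, Zc3h3 lower; all genes 13.7% and 9.45%, 23.1% either way).

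**Figure D2:**
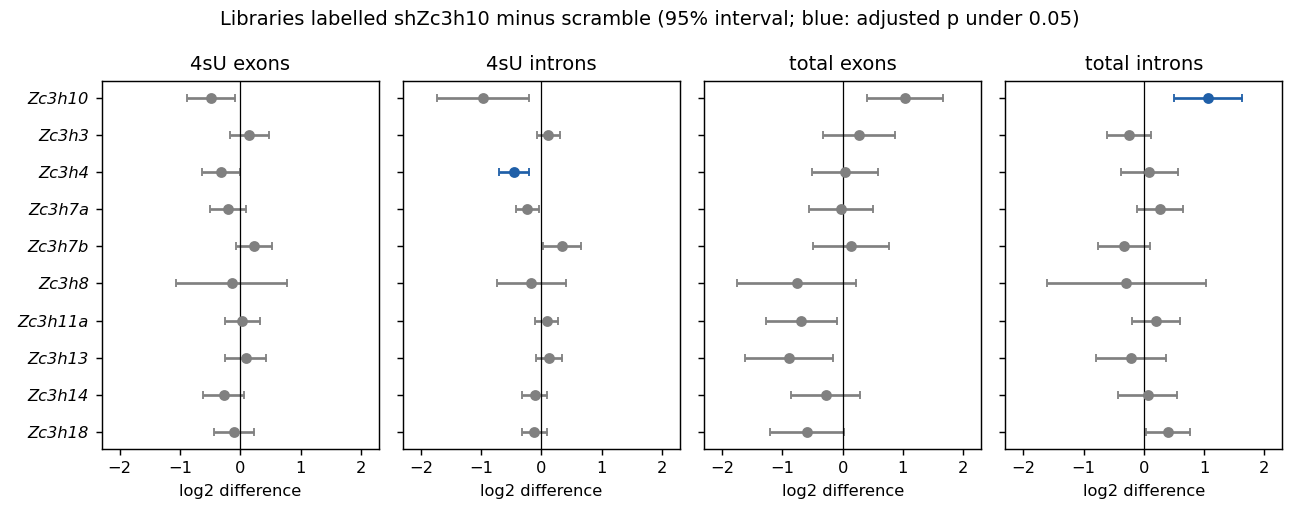
Hairpin effect on each of the 10 genes as log2 difference, shZc3h10 minus scramble as labelled (horizontal axis), over exons and introns of 4sU and total RNA, with bars for the 95% interval. Zc3h10 lies left of 0 in 4sU RNA and right of 0 in total RNA, and most other members lie within 0.5 of 0 with intervals that cross it.

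Zc3h4 is a subunit of the Restrictor complex, which with Wdr82 ends non-productive transcription early. Over introns of 4sU RNA it stood at 66.0, 78.6 and 60.1 CPM with shZc3h10 and 92.7 and 94.5 CPM with scramble. Every shZc3h10 library was the lower, and Zc3h4 fell by 0.46 on the log2 scale (SE 0.11; edgeR, adjusted p = 0.0179). The call was lost in 4 of 5 fits with 1 library left out, without shZc3h10 library 1 (adjusted p = 0.0816) or 3 (0.0779) and without scramble library 1 (0.0979) or 2 (0.0599). Over exons it stood at 45.3, 59.9 and 49.0 CPM against 61.8 and 66.5 CPM, a difference of −0.32 (SE 0.15) that did not pass (edgeR, adjusted p = 0.220). In total RNA its groups overlapped, at 26.8 to 37.8 CPM labelled shZc3h10 and 27.4 to 36.8 labelled scramble over exons. The Zc3h4 effect over introns did not differ by test between the kinds of RNA (−0.53, SE 0.26; adjusted p = 0.197), except without total scramble library 3 (−0.78, adjusted p = 0.0311).

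Zc3h3 and Zc3h18 connect nuclear polyadenylated RNA to the exosome, Zc3h3 in the PAXT connection and Zc3h18 by a bridge from the cap-binding complex. Exonic Zc3h3 was at 94.9, 86.7 and 74.3 CPM in 4sU RNA with shZc3h10 and 68.8 and 84.9 with scramble, and the groups overlapped (0.15, SE 0.15; edgeR, adjusted p = 0.637). In total RNA it was at 9.25, 6.62 and 11.7 CPM against 7.82, 7.40 and 7.67 CPM (0.27, SE 0.28; adjusted p = 0.567). Exonic Zc3h18 was at 65.3, 76.6 and 54.6 CPM in 4sU RNA against 67.4 and 73.5 CPM (−0.11, SE 0.16; adjusted p = 0.764), with overlap. In total RNA its exons and introns went opposite ways. The exons were at 18.0, 17.4 and 11.1 CPM labelled shZc3h10 and 28.9, 17.5 and 24.0 labelled scramble (−0.60, SE 0.29; edgeR, adjusted p = 0.196). The introns were at 207, 192 and 156 CPM against 131, 149.6 and 141 CPM (0.40, SE 0.17; adjusted p = 0.229). The exonic minus the intronic effect of Zc3h18 in total RNA was −1.01 (SE 0.30; −1.65 to −0.37) and did not pass (edgeR, adjusted p = 0.130), though it did without scramble library 2 (−1.23, adjusted p = 0.0292).

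Zc3h13 holds the m6A methyltransferase complex in the nucleus, and Zc3h11a takes part in mRNA export with the TREX complex. Exonic Zc3h13 in 4sU RNA was at 39.5, 44.0 and 33.5 CPM against 38.9 and 34.3 CPM (0.09, SE 0.16; edgeR, adjusted p = 0.819). In total RNA it was at 6.06, 4.93 and 4.56 CPM labelled shZc3h10 and 10.5, 4.90 and 13.4 labelled scramble (−0.89, SE 0.34; adjusted p = 0.118). Scramble library 2 lay among the shZc3h10 libraries and apart from the other two, and without it the difference was −1.14 and passed (edgeR, adjusted p = 0.0142). Exonic Zc3h11a was at 287, 322 and 249 CPM against 283 and 276 CPM in 4sU RNA (0.03, SE 0.14; adjusted p = 0.937). In total RNA it was at 44.1, 34.1 and 44.0 CPM against 64.0, 47.3 and 85.1 CPM, lower in all 3 libraries labelled shZc3h10 without passing (−0.68, SE 0.28; edgeR, adjusted p = 0.136). Its exonic minus intronic effect in total RNA was −0.90 (SE 0.25; −1.44 to −0.37; adjusted p = 0.120), and that of Zc3h13 was −0.68 (adjusted p = 0.193). In this contrast 0 of 10 members were called in total RNA and 0 in 4sU RNA by edgeR, where 0.0336% of 11891 and 0.144% of 11812 genes were called. In total RNA 3 members (Zc3h11a, Zc3h13 and Zc3h18) and in 4sU RNA 0 had an unadjusted p under 0.05. That is a looser threshold, for which the share of all genes was not taken.

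Scramble library 2 of total RNA held the lowest of the 3 scramble values for 7 of 10 members over exons and for 7 of 10 over introns. The share of all genes lowest in that library was not taken, so this is not a trait of the members. These counts describe the 10 genes only. Zc3h10 was not among the 7 in either, and its exonic level was highest in that library.

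Zc3h14 binds poly(A) tails and limits their length. Its exons were at 55.2, 64.7 and 46.6 CPM against 74.2 and 59.8 CPM in 4sU RNA (−0.28, SE 0.16; edgeR, adjusted p = 0.340), and its groups overlapped in total RNA too (−0.28, SE 0.27; adjusted p = 0.529). Zc3h8 belongs to the little elongation complex, which serves small nuclear RNA genes. It had the fewest reads of the members over exons, 15 to 101 a library, and as few as 6 over introns of total RNA, while over introns of 4sU RNA Zc3h10 had fewer, and its intervals were correspondingly wide (−1.07 to 0.78 over exons of 4sU RNA, −1.74 to 0.22 in total RNA). Differences of Zc3h8 below about 1 log2 unit were not detectable at this depth.

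Zc3h7a and Zc3h7b bind the stem-loops of certain microRNA precursors. Intronic Zc3h7a in 4sU RNA was at 128, 120.1 and 119 CPM with shZc3h10 and 145 and 143 CPM with scramble, a narrow spread with the groups apart (−0.23, SE 0.09; edgeR, adjusted p = 0.0921). Intronic Zc3h7b went the other way, at 29.0, 38.8 and 38.4 CPM against 26.2 and 29.6 CPM (0.34, SE 0.14; adjusted p = 0.130), with shZc3h10 library 1 inside the scramble range. Without that library the Zc3h7b difference was 0.47 and passed (edgeR, adjusted p = 0.0419). Over exons the differences in 4sU RNA were −0.20 for Zc3h7a and 0.22 for Zc3h7b (adjusted p = 0.433 and 0.390). In total RNA exonic Zc3h7b ran from 181 to 269.6 CPM labelled shZc3h10 and from 154 to 247 labelled scramble, and the groups overlapped. The intronic Zc3h7b effect in 4sU RNA minus that in total RNA was 0.70 (SE 0.25; edgeR, adjusted p = 0.0715). It passed by DESeq2 (0.73, adjusted p = 0.0259) and without total scramble library 1 (0.82, edgeR, adjusted p = 0.0487).

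The third question was the share of each gene in newly made RNA against its share in total RNA, averaged over both labels so that it does not rest on which total libraries carry which hairpin. A high ratio goes with fast turnover relative to other genes, and a low ratio with slow turnover. By edgeR, 5 members were higher in 4sU RNA and 2 lower, where 71% of 15046 genes were called (35.1% higher and 35.9% lower). The median of the members was 0.26, beside −0.01 over all genes.

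**Figure D3:**
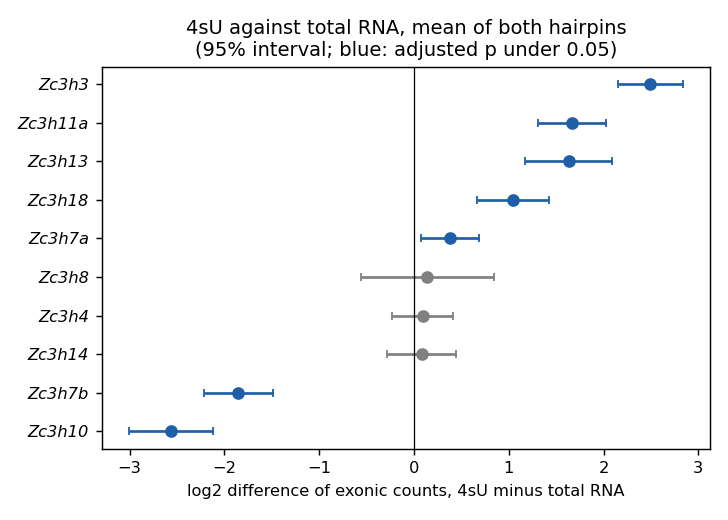
Log2 ratio of exonic level in 4sU RNA to that in total RNA for the 10 genes (horizontal axis), averaged over both hairpin labels, with bars for the 95% interval. Zc3h3 stands highest at 2.49, and Zc3h7b (−1.85) and Zc3h10 (−2.56) stand lowest, apart from the other members.

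Zc3h10 stood lowest of the members at −2.56 (SE 0.21; edgeR, adjusted p = 8.52e-09), a 5.91-fold smaller share in 4sU RNA, at percentile 4.85 of all genes tested. Zc3h7b followed at −1.85 (SE 0.17; adjusted p = 3.95e-08). The intervals of Zc3h10 (−3.00 to −2.12) and Zc3h7b (−2.22 to −1.49) overlapped at their ends, and the difference between these neighbours was not tested. Zc3h14 (0.08), Zc3h4 (0.09) and Zc3h8 (0.14) were not called (edgeR, adjusted p = 0.691, 0.610 and 0.717). Zc3h7a was slightly higher (0.38, SE 0.15; adjusted p = 0.0265), a call that was lost in 5 of 11 fits with 1 library left out, with adjusted p up to 0.0987, those without 4sU shZc3h10 library 1 or 3, either 4sU scramble library or total scramble library 1. Zc3h18 stood at 1.04 (SE 0.18; adjusted p = 5.00e-05), Zc3h13 at 1.63 (SE 0.22; adjusted p = 2.78e-06) and Zc3h11a at 1.67 (SE 0.17; adjusted p = 1.24e-07). The intervals of Zc3h13 and Zc3h11a lay almost on each other. Zc3h3 stood highest at 2.49 (SE 0.16; adjusted p = 8.89e-10), a 5.62-fold larger share in 4sU RNA and percentile 94.3, and its interval (2.15 to 2.83) lay above that of every other member. Of the members, the nuclear RNA surveillance genes Zc3h3 and Zc3h18 were thus called on the high side, and Zc3h4, the Restrictor subunit, was not.

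The share of a member's reads that lay in introns depends, among other things, on intron and exon length. It is therefore compared between libraries and not as a rank of genes. In 4sU RNA 8 of the 10 members had 67.2% to 89.7% intronic reads in every library. Zc3h7b had 39.6% to 46.4% and Zc3h10 14.2% to 24.6%. In total RNA Zc3h7b fell to 3.06% to 8.55% and Zc3h10 to 5.78% to 9.70%, while Zc3h3 kept 60.3% to 77.8% and Zc3h13 57.1% to 70.0%. In total RNA the groups did not overlap for 3 of 10 members, Zc3h11a higher under the shZc3h10 label and Zc3h3 and Zc3h7b lower, where 22% of 13035 genes did not (3.75% higher and 18.3% lower). Zc3h11a had 50.8%, 48.6% and 51.3% labelled shZc3h10 and 36.1%, 44.7% and 40.5% labelled scramble, and Zc3h3 had 63.6%, 65.8% and 60.3% against 70.2%, 75.6% and 77.8%. In 4sU RNA they did not overlap for 4, Zc3h7b, Zc3h11a, Zc3h14 and Zc3h18, all higher with shZc3h10, where 29.8% of genes did not (24.4% higher and 5.39% lower). Most of these directions are those of the libraries' own intronic shares given above, that of Zc3h11a in total RNA being opposite.

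**Figure D4:**
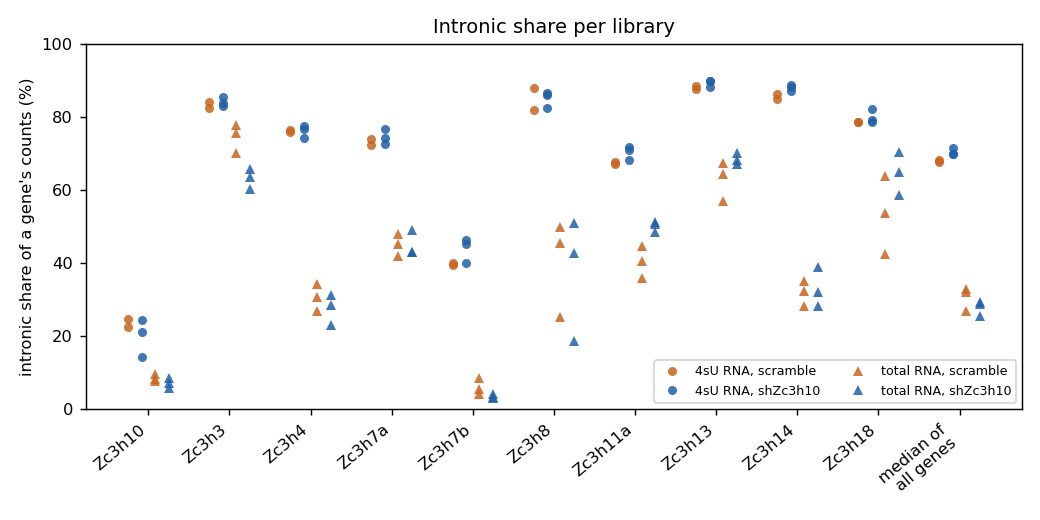
Intronic reads as a percent of all reads of each of the 10 genes (vertical axis), with 1 point per library in the 4 groups and the median over 13035 genes at the right. Every member has the smaller share in total RNA, and Zc3h10 (5.78% to 24.6%) and Zc3h7b (3.06% to 46.4%) lie under the other members in 4sU RNA.

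Some of these counts may be shared with overlapping genes, since the use of strand in counting is not given in the sources used here. In the GENCODE M21 annotation of GRCm38, Zc3h10 overlaps the antisense gene Gm29585, and the intronless Zbed6 lies on the strand of Zc3h11a, with 491 ± 70.0 CPM in 4sU RNA with shZc3h10 (SD, n = 3) and 529 ± 28.6 with scramble (n = 2). Rangap1 lies opposite Zc3h7b and fell over introns of 4sU RNA (log2 −0.52; edgeR, adjusted p = 0.00694), opposite to the Zc3h7b difference. Eml5 lies opposite Zc3h14 and fell there too (−0.76, adjusted p = 5.57e-04). Gm20388 shares the strand of Zc3h18, Gm38394 that of Zc3h11a, and 3 genes not typed as protein-coding lie opposite Zc3h4. Their part in the members' values was not tested.

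Outside the 10 members, 48 other genes for CCCH proteins were matched. Over exons of 4sU RNA 4 of 46 tested rose and 1 fell, where 5.66% of all genes tested rose and 4.69% fell. Parp12 (0.85), Nupl2 (0.77), Zfp36l1 (0.63) and Zfp36 (0.62) rose and Ppp1r10 fell (−0.50), Zfp36 being named after its value was seen. Zfp36 and Zfp36l1 encode proteins that speed the decay of mRNAs with AU-rich elements, and Ppp1r10 a regulatory subunit of protein phosphatase 1 that acts in transcription termination. None of these 5 calls survived the loss of every single library. Without scramble library 2 the calls of Parp12, Zfp36l1 and Zfp36 were lost (edgeR, adjusted p = 0.191, 0.245 and 0.193) together with that of Ppp1r10. Without scramble library 1 those of Nupl2 and Ppp1r10 were lost (0.410 and 0.182) together with that of Parp12. Without shZc3h10 library 3 all but Zfp36 lost the call, and without shZc3h10 library 1 Ppp1r10 did. Over introns of 4sU RNA, where 8.95% of all genes rose and 6.57% fell, 3 of 41 rose (Zfp36l1 0.75, Parp12 0.50, Mbnl1 0.40) and 1 fell, Ppp1r10 (−0.58, SE 0.11; edgeR, adjusted p = 0.00285), which was called in 5 of 5 fits with 1 library left out. Zfp36l1 was called in 1 of those 5 fits and Parp12 and Mbnl1 in 2, with adjusted p up to 0.207, 0.158 and 0.235, losing the call without shZc3h10 library 3 or either scramble library and, for Zfp36l1, without shZc3h10 library 1. Over exons of total RNA 1 of 45 rose, Cpsf4, a cleavage and polyadenylation factor (1.15; lost without scramble library 1, adjusted p = 0.111, or 3), and 0 fell, where 3.06% of all genes rose and 3.36% fell. Over introns of total RNA 0 of 40 were called by edgeR, where 5.18% of all genes were called. Of the 40, 6 had an unadjusted p under 0.05, a looser threshold for which the share of all genes was not taken. The ratio of 4sU to total RNA was higher for 21 of 47 and lower for 12 (median 0.36), where 35.1% of all genes were higher and 35.9% lower (median −0.01), led by Zc3hav1l (2.75), Zc3h12a (2.19) and Zfp36l3 (1.94) and by Rnf113a2 (−1.48), Leng9 (−1.46) and Zc3h15 (−1.37). These 6 calls held in all 11 fits with 1 library left out.

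The counts of called partner genes below stand beside the shares of all genes called, 10.4% over 4sU exons, 6.42% over total exons and 35.1% higher and 35.9% lower for the ratio of 4sU to total RNA. These shares do not apply to the counts at an unadjusted p under 0.05. Of 11 partners in nuclear RNA surveillance (the PAXT, NEXT, cap-binding and Restrictor complexes), 0 were called over 4sU exons, with 2 at an unadjusted p under 0.05. Over total exons labelled shZc3h10 2 of them rose, Exosc10 (1.15) and Ncbp1 (1.08). Both calls held in 2 of 6 fits with 1 library left out, and were lost without shZc3h10 library 1 or 2 or scramble library 1 or 3 (edgeR, adjusted p up to 0.186 and 0.160). As for Zc3h10, the effect in 4sU RNA minus that in total RNA over exons was negative for both and passed (−1.39 and −1.38; edgeR, adjusted p = 0.0102 and 0.00416), in 11 of 11 such fits. The ratio of 4sU to total RNA was low for Exosc10 (−2.27), Zcchc8 (−2.05) and Ncbp1 (−1.64) and high for Rbm7 (0.65) and Pabpn1 (0.59), with 2 of 11 higher and 4 lower.

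Of 7 genes of the m6A writer, the partners of Zc3h13, 0 were called over 4sU exons, with 0 at an unadjusted p under 0.05. Mettl14, the RNA-binding partner of Mettl3, rose over total exons labelled shZc3h10 (1.46; edgeR, adjusted p = 0.0223; 0.119 without scramble library 3, and lost without scramble library 1). Its effect also differed between the kinds of RNA over exons (−1.74; adjusted p = 0.00561), in 11 of 11 fits with 1 library left out. Rbm15 fell over 4sU introns (−0.71; adjusted p = 0.0249), a call lost without shZc3h10 library 1 or 3 or scramble library 1 (up to 0.479). The ratio of 4sU to total RNA was high for Wtap (2.08), Rbm15 (1.79) and Cbll1 (1.20), as for Zc3h13 itself, and low for Mettl14 (−0.46; edgeR, adjusted p = 0.0456; called in 2 of 11 fits with 1 library left out), with 3 of 7 higher and 1 lower.

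Of 10 TREX and export genes, the partners of Zc3h11a, 0 were called over exons of 4sU or total RNA, with 1 and 2 at an unadjusted p under 0.05, while 5 had a low ratio of 4sU to total RNA, among them Nxf1 (−1.77), Thoc5 (−1.73) and Ddx39b (−1.49), and 2 a high one, Thoc2 (1.60) and Alyref (1.09). Zc3h11a stood with the latter pair. Of 7 little elongation complex genes 6 had a high ratio and 0 a low one (Ice1 0.98, Ell3 0.96, Usp37 0.93), where 35.1% of all genes had a high ratio. Of 10 genes that process microRNA precursors, 0 were called over exons of either kind of RNA, with 1 and 2 at an unadjusted p under 0.05. Their ratio was high for 3, Dgcr8 (2.01), Ago2 (1.79) and Dicer1 (1.54), and low for 1, Xpo5 (−1.51).

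Other calls in these lists follow. Over introns of 4sU RNA Thoc6 fell (−0.47) and Ell2 rose (0.30), and both calls were lost without shZc3h10 library 1 or 3 or either scramble library (edgeR, adjusted p up to 0.145 and 0.317). Over introns of total RNA labelled shZc3h10, Mettl14 (0.84), Tarbp2 (0.79) and Nxf1 (0.74) rose. These 3 calls were lost without shZc3h10 library 1 or scramble library 1, and for Tarbp2 and Nxf1 also without shZc3h10 library 2 or scramble library 3, for Mettl14 and Tarbp2 also without shZc3h10 library 3 (edgeR, adjusted p up to 0.117, 0.165 and 0.234). The exonic effect in 4sU RNA minus that in total RNA was called for 5 of the 47 other CCCH genes tested. Parp12 (2.10) and Zc3h6 (1.20) were higher and Cpsf4 (−1.50), Ppp1r10 (−1.20) and Mbnl2 (−1.10) lower. Of all genes tested 14.1% were called in this contrast, 5.55% higher and 8.56% lower. With 1 library left out, the call held in 11 of 11 fits for Cpsf4, 10 for Ppp1r10 (edgeR, adjusted p = 0.0637 without 4sU scramble library 1), 6 for Parp12, 5 for Zc3h6 and 2 for Mbnl2. The exonic contrast was also called for Zcchc8 (−1.42, in 8 of 11 such fits) and Nxf1 (−1.15, in 4 of 11). Over introns, where 14.6% of all genes tested were called, the same contrast was called for Parp12 (1.38), Mbnl1 (0.82), Tarbp2 (−1.08), Dgcr8 (−1.07), Mettl14 (−0.98) and Nxf1 (−0.90). Of these, Tarbp2 held in 11 of 11 such fits and the others in 7 to 10.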

How the data were processed

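The authors deposited raw read counts per gene over exons and over introns for each of 11 libraries, whole numbers with an Entrez identifier and symbol per the file headers. TopHat2 2.0.8, TopHat and the mouse build mm9 are named per the submitters' processing notes. Not given in the sources used here are the counting program, annotation and use of strand. Groups follow the labels. Here edgeR 4.0.16 in R 4.3.3 scaled the counts by trimmed mean of M values (TMM) and ran its quasi-likelihood test after filterByExpr (minimum count 10, minimum total 15), with Benjamini-Hochberg adjustment over all genes tested and calls below 0.05. Standard errors derive from the F statistic. Fits across kinds of RNA used all 11 libraries and 4 group means, and exon against intron fits used the library as a block. The scripts were tested on simulated data. Depth was 10369374 to 54075687 exonic counts a library, which limits Zc3h8 most over exons.

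All 10 members were named in every comparison, with up to 3 called genes each way per list and the 3 genes nearest to Zc3h10. Members and lists were chosen with earlier results of these data known. The main fits did not take replicate numbers as pairs. Whether the numbers pair libraries, between hairpins or between newly made and total RNA, was not settled. Alternatives were DESeq2 1.42.0, size factors by relative log expression, no low-count filter, a replicate block, leaving out each library and, added after seeing the data, the opposite sign of the total RNA effect in the difference between kinds of RNA. The hairpin's sequence was not used here.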

Additional observations from a re-analysis of the deposited data

Results flagged for a closer look

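The hairpin effect on Zc3h10 differed between newly made and total RNA by a test of the difference itself, with 3 and 2 libraries of 4sU RNA and 3 and 3 of total RNA as labelled. Over exons the effect in 4sU RNA minus that in total RNA was −1.68 (SE 0.38; edgeR, adjusted p = 0.00677), from effects of −0.49 and 1.04 in the separate fits. Over introns it was −2.00 (SE 0.37; edgeR, adjusted p = 0.00190), from −0.97 and 1.07. The labels of the total RNA libraries and the names of their deposited files give opposite hairpins in 6 of 6 cases, and which of them is right cannot be told apart here. With the total RNA effect taken with the opposite sign, added after seeing the data, the difference was 0.65 over exons and −0.02 over introns, called in neither (edgeR, adjusted p = 0.525 and 0.990), so that it depends on those labels.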

How the results depend on the processing

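No called difference of a member changed direction with another tool, scaling, filter or block or with a library left out. For all genes, DESeq2 called 1877 over total exons (1096 higher and 781 lower, against 424 and 465 by edgeR) and 1260 over total introns. Leaving out the low-count filter gave 1591 over total exons and 145 and 182 for the exonic minus the intronic effect in 4sU and total RNA, against 17 and 4. With the replicate block, 809 genes were called over 4sU exons, 100 over total exons and 217 over total introns. The main fits did not take the numbers as pairs. Deviations of same-numbered libraries from their group means correlated at −0.09 and −0.13 in 4sU RNA and 0.17, −0.20 and −0.22 in total RNA. Centring groups of 2 or 3 libraries constrains these values, so they cannot decide whether the numbers pair the libraries. They compare hairpins within a kind of RNA. Pairing of 4sU with total RNA libraries of the same number was not tested. The block left 0 members called over 4sU introns (Zc3h4 −0.38, adjusted p = 0.0876) and 0 over total introns (Zc3h10 1.06, adjusted p = 0.108). Over total exons 1 member, Zc3h10, was called by DESeq2, with relative log expression factors (1.10, adjusted p = 0.0441) and with no low-count filter (1.05, adjusted p = 0.0210), and the intronic difference between kinds of RNA had 2 called by DESeq2. With no filter the 4sU to total ratio of Zc3h7a was no longer called (adjusted p = 0.0562). With 1 library left out, genes called ranged from 724 (without scramble library 1) to 1734 (4sU exons), 935 (without the same library) to 2586 (4sU introns), 161 (without total scramble library 3) to 2588 (without total scramble library 2) (total exons), 217 (without total scramble library 1) to 1048 (total introns), 1029 to 3246 and 1153 to 2471 (difference between kinds of RNA, exons and introns), and 2 to 25 and 0 to 658 (exonic minus intronic effect, 4sU and total). Members called ranged from 0 to 1 over 4sU exons, 4sU introns, total introns and the exonic minus intronic effect in total RNA, from 0 to 2 over total exons and from 1 to 2 for both differences between kinds of RNA. The difference between kinds of RNA also passed for Zc3h13 over exons without total scramble library 2 (1.14, adjusted p = 0.0207) and for Zc3h18 over introns without total shZc3h10 library 3 (−0.61, adjusted p = 0.0382). All sign changes in these, 5 of 320 values with another tool, scaling, filter or block and 45 of 660 with a library left out, were in values called in neither fit, and the cause was not tested. The 5 were Zc3h7a over total exons, 0.039 by both DESeq2 and relative log expression, the exonic minus intronic effect of Zc3h10 in total RNA, 0.050 by relative log expression, that of Zc3h18 in 4sU RNA, 0.0010 with no filter, and Zc3h18 over 4sU exons, 0.0063 with the block. The ranges with 1 library left out were, over 4sU exons, −0.56 to 0.59 for Zc3h8, −0.051 to 0.13 for Zc3h11a and −0.22 to 0.015 for Zc3h18, and over 4sU introns −0.44 to 0.11 for Zc3h8. Over total exons they were −0.023 to 0.21 for Zc3h4 and −0.084 to 0.18 for Zc3h7a, and over total introns −0.047 to 0.36 for Zc3h4, −0.60 to 0.15 for Zc3h8, −0.50 to 0.13 for Zc3h13 and −0.14 to 0.35 for Zc3h14. For the exonic difference between kinds of RNA they were −0.25 to 0.11 for Zc3h7b, −0.010 to 1.24 for Zc3h8 and −0.33 to 0.069 for Zc3h14, and for the intronic one −0.30 to 0.44 for Zc3h8, −0.29 to 0.023 for Zc3h11a and −0.43 to 0.029 for Zc3h14. For the 4sU to total ratio they were −0.24 to 0.38 for Zc3h8 and −0.023 to 0.20 for Zc3h14. For the exonic minus intronic effect in 4sU RNA they were −0.071 to 0.14 for Zc3h3, −0.055 to 0.11 for Zc3h7a, −0.18 to 0.47 for Zc3h8, −0.16 to 0.0045 for Zc3h11a, −0.15 to 0.0081 for Zc3h13 and −0.065 to 0.11 for Zc3h18, and in total RNA −0.080 to 0.11 for Zc3h10, −0.28 to 0.050 for Zc3h4 and −0.77 to 0.25 for Zc3h8. Of the other genes named, 118 values with a library left out and 27 under other settings, 23 of them with the replicate block, lost the call and 0 changed direction. Those lost with the block include Parp12, Zfp36l1, Zfp36 and Ppp1r10 over 4sU exons and Mettl14, Cpsf4, Exosc10 and Ncbp1 over total exons. With the total RNA effect taken with the opposite sign (added after seeing the data), 0 genes and 0 members were called for the difference between kinds of RNA over exons or introns. Of 36 named values 29 changed sign, and 0 were called. These 29 were, over exons, 0.65 for Zc3h10, 0.50 for Zc3h3, 0.44 for Zc3h7b, −0.80 for Zc3h8, −0.58 for Zc3h11a, −0.72 for Zc3h13, −0.60 for Zc3h18, 1.38 for Mettl14, −0.45 for Parp12, 1.03 for Cpsf4, −0.14 for Zc3h6, 0.13 for Ppp1r10, 0.52 for Mbnl2, 0.76 for Zcchc8, 1.14 for Exosc10, 0.99 for Ncbp1 and 0.82 for Nxf1, and over introns, −0.24 for Zc3h3, −0.11 for Zc3h7b, −0.56 for Zc3h8, 0.18 for Zc3h11a, −0.19 for Zc3h13, 0.17 for Zc3h18, 0.35 for Tarbp2, 0.40 for Dgcr8, 0.57 for Mettl14, −0.46 for Parp12, −0.11 for Mbnl1 and 0.43 for Nxf1. Depth limits Zc3h8 most over exons, and Zc3h10 over introns of 4sU RNA.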
